A study of Mus musculus with 47 samples.

Results

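Re-expression of Bcl11b in Bcl11b-knockout T-cell precursors was followed in 3 of the 47 RNA-seq libraries of the series, chosen by their titles, which share 1 date and name a second retroviral vector for 36 hours. The knockout cells received either the Bcl11b124 vector or MSCV-EV, which the treatment labels give as an empty vector, and a B6Cre control received MSCV-EV. Each condition is 1 library, so differences between them carry no test and no replicate error. Per the labels, Bcl11b124 carries the Bcl11b isoform made of exons 1, 2 and 4, so the vector supplies 1 isoform only.

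All 3 libraries came from fetal liver precursors of embryonic day 13.5, given a Cre retrovirus and grown with Flt3L and IL-7 on OP9-DL1 stroma, which presents the Notch ligand Delta-like 1, to culture day 12. The knockout cells were homozygous for a floxed Bcl11b allele, and the controls carried intact Bcl11b on the C57BL/6 (B6) background. Only the control title names B6, so genotype and mouse line cannot be told apart. All 3 titles say DN2b, a double-negative stage just after T-lineage commitment. The stage label reads DN2b for the control but DN2 for the knockouts, and the protocol gives a DN2a sort for floxed cells, so the gate may differ as well. Fetal liver libraries without a second vector served as references: 14 knockout and 11 control libraries over several stromas and IL-7 conditions, of which 3 knockouts and 3 controls were day-12 cultures on OP9-DL1 in standard IL-7. These 6 day-12 libraries are called Cre-only here, since their labels give the Cre retrovirus and no second vector. In bulk samples fewer cells of a type and less RNA per cell cannot be told apart.

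Bcl11b is a zinc-finger protein whose expression begins when early thymic precursors become committed T cells. It represses and activates genes together with chromatin complexes such as NuRD, the nucleosome remodelling and deacetylase complex. Precursors that lack it keep stem-cell and progenitor genes on, turn on natural killer and innate lymphoid genes, and fail to raise parts of the T-cell receptor machinery.

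Values are FPKM (fragments scaled to transcript length and library size), and differences are in log2(FPKM + 1). Bcl11b itself stood at 24.7 FPKM in the empty-vector knockout, 105.4 in the knockout given the Bcl11b vector and 41.4 in the empty-vector control. The 3 Cre-only day-12 knockouts had 37.9, 25.5 and 16 FPKM and the 3 controls 84.4, 48.1 and 72.7. The vector library was thus 4.26-fold above its empty-vector counterpart and above all 8 other day-12 libraries. A level per gene does not separate vector transcript from endogenous transcript, nor transcript of the deleted allele from intact transcript.

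The other marker genes of the experiment, Zbtb16, Cd3e and Ptcra, each lay closer to the control with the Bcl11b vector than with the empty vector. Zbtb16, which encodes PLZF, a factor of innate-like lymphocytes, was at 36.9 FPKM in the empty-vector knockout, 19.7 in the Bcl11b vector library and 9.8 in the empty-vector control. Its Cre-only day-12 values were 78.0, 44.5 and 25 in the knockouts and 13.6, 11.2 and 8.8 in the controls. The vector library lay below all of these knockouts and above all of these controls. The Zbtb16 move of -0.87 covered 48.3% of the distance to the control with the empty vector. Cd3e, a chain of the CD3 complex that signals for the T-cell receptor, was at 3.5, 16.5 and 48.1 FPKM in the same order, a 4.77-fold difference between the vectors and 57.1% of the distance. It was at 7.9 FPKM in 1 Cre-only knockout and at the lowest value of the table, 0.1 FPKM, in the other two, while the controls had 114.0, 72.2 and 58.7. The Bcl11b vector library was above every day-12 knockout and below every day-12 control. Over all 14 knockouts without a second vector, Cd3e averaged 15.6 FPKM (SD 17.8), close to the 16.5 of that library.

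Ptcra, which encodes the pre-T-cell receptor alpha chain, was at 0.1 FPKM in the empty-vector knockout, 15.9 in the Bcl11b vector library and 21.8 in the empty-vector control. This difference rests on the empty-vector library. The Cre-only knockouts had 15.4, 31.1 and 8.8 FPKM and the controls 104.3, 41.1 and 130.4, so the vector library lay within the range of the knockouts. Measured from the mean of those 3 knockouts, its move was -0.03 instead of 3.95. The empty-vector library had 606 genes at the floor of 0.1 FPKM against 375 in the Bcl11b vector library.

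**Figure D1:**
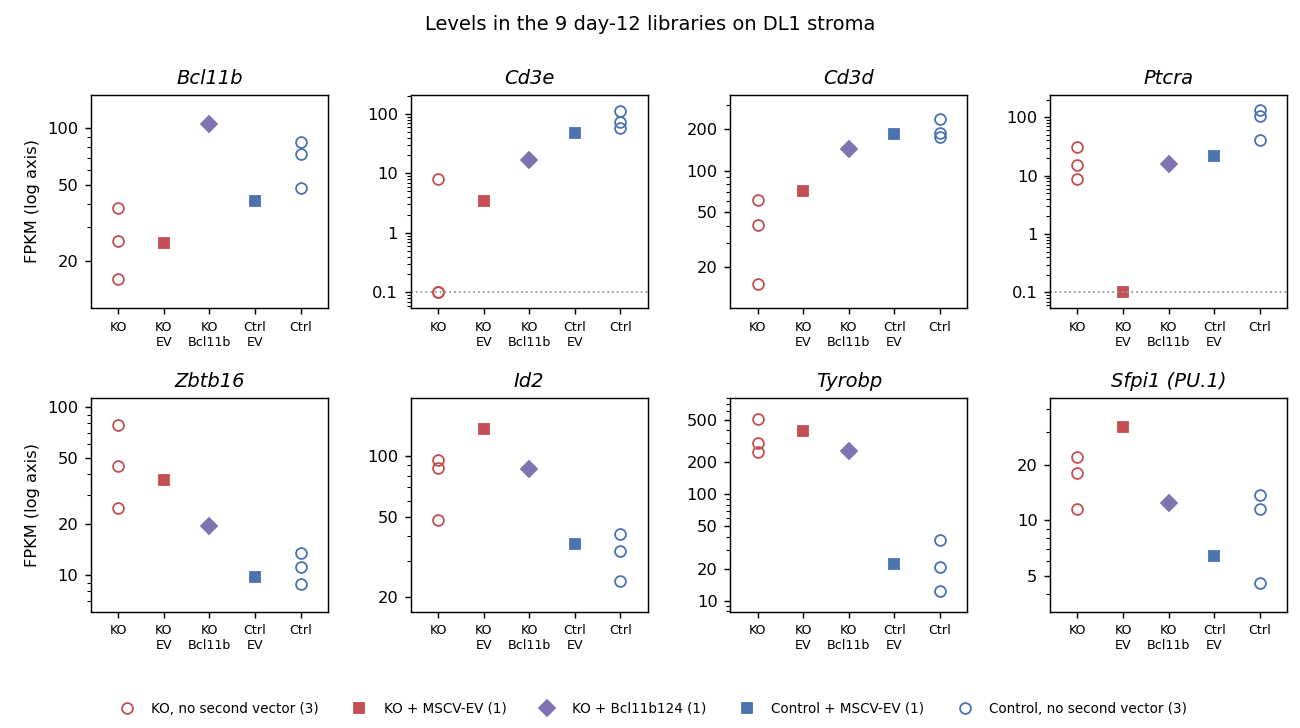
FPKM (log axis) of 8 genes in the 9 day-12 libraries on DL1 stroma, 1 point per library, with filled symbols for the 3 libraries that received a second vector and dotted lines at the floor of 0.1 FPKM. The Bcl11b vector library (diamond) is the highest for Bcl11b, lies between knockouts and controls for Cd3e, Cd3d and Zbtb16, and lies within the Cre-only knockouts for Ptcra, Id2, Tyrobp and Sfpi1.

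Ptcra, Cd3e and Cd3d were the 3 members of the T-cell receptor list with the largest increase from the empty to the Bcl11b vector, and their promoters are shown for that reason. Each runs from 250 bases before to 50 bases after the gene's start, from RefSeq on GRCm38.p6, at chr17:46763663-46763962 (minus strand) for Ptcra, chr9:45009562-45009861 (minus strand) for Cd3e and chr9:44981536-44981835 (plus strand) for Cd3d. Capitals mark matches to CANNTG, the E-box motif bound by E proteins, whose inhibitors Id2 and Id3 are described further on. The motif reads the same on both strands.
Ptcra: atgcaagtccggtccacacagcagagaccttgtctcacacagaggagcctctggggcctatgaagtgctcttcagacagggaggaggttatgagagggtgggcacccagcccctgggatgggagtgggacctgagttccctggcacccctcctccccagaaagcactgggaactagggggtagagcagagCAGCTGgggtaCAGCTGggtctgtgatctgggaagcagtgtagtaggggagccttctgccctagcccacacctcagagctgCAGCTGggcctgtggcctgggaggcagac
Cd3e: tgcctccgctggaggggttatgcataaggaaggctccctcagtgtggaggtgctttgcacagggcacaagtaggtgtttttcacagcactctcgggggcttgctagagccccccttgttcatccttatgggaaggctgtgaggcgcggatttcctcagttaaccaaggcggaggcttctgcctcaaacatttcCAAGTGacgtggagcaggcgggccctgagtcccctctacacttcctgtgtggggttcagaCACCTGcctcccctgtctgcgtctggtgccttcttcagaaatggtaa
Cd3d: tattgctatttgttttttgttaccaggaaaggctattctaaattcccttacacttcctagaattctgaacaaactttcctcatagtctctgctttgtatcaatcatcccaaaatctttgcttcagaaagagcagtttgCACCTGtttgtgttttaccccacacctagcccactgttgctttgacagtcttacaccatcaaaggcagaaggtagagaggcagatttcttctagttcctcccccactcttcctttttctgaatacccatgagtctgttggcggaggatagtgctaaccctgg
The Ptcra window holds 3 matches, all CAGCTG, the Cd3e window 2 and the Cd3d window 1. Of 32851 promoters of the same length, 72.3% hold a CANNTG and 16.3% a CAGCTG, while 0.207% hold 3 or more CAGCTG. These matches describe the letters only.

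Across 13760 genes with at least 1 FPKM in 1 of the 3 vector libraries, 248 (1.8%) were 2-fold or more higher with the Bcl11b vector than with the empty vector in knockout cells and 217 (1.58%) were 2-fold or more lower. The control with the empty vector differed from the knockout with the empty vector by that much at 1111 genes, or 8.07%, 429 higher (3.12%) and 682 lower (4.96%). It differed from the knockout with the Bcl11b vector at 717 genes, or 5.21%. The 3 Cre-only knockouts differed from the empty-vector knockout at 1273, 1201 and 983 genes (9.25%, 8.73% and 7.14%), more than the 2 knockouts with a vector differed from each other. Of the 248 genes that were higher, 56 stood at the floor in the empty-vector library.

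To measure how far the knockout pattern was undone, the genes altered by the knockout were taken from the 14 knockout and 11 control libraries without a second vector, which share no library with the vector experiment. Of 12678 genes tested with limma, 2142 (16.9%) had a Benjamini-Hochberg adjusted p under 0.05, 1242 of them higher (9.8%) and 900 lower (7.1%) in the knockout. With the 9 title-date pairs as a replicate block, 1282 genes were called. That fit leaves out the libraries without a pair, so fewer libraries and the block cannot be told apart.

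Most of these genes moved in the direction of the control with the Bcl11b vector. A move toward the control means direction only here, so genes that passed the control level are counted as well. Of the 1222 knockout-higher genes described, 932 (76.3%) were lower with the Bcl11b vector than with the empty vector, against 47.7% of all 13760 genes. Of the 890 knockout-lower genes described, 661 (74.3%) were higher, against 50.6% of all genes. The summed moves were 32.8% of the summed knockout difference for the higher genes and 33.2% for the lower genes. Single genes moved little: the median move toward the control was 0.21 for the higher and 0.20 for the lower genes. Over all described genes the median move was 0.01. The median gap between the 2 empty-vector libraries, in the same direction, was 0.68 for the higher and 0.12 for the lower genes. A 2-fold or larger move toward the control was seen at 42 knockout-higher genes and away from it at 2, and at 39 and 1 of the knockout-lower genes.

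The share of genes that moved toward the control was larger among genes with a larger knockout difference. Among knockout-higher genes it was 66% of 488 with a difference under 0.5, 79.2% of 499 from 0.5 to 1, 90.6% of 203 from 1 to 2 and 96.9% of 32 above 2. Among knockout-lower genes it was 71.1% of 370, 73.4% of 387, 85.7% of 112 and 85.7% of 21. Among genes not called in the knockout, 49.4% of 5912 with a higher mean were lower with the Bcl11b vector, and 58.1% of 4438 with a lower mean were higher. Over the 2112 called genes the knockout difference and the move had a Pearson r of -0.58, against -0.09 over 10350 tested genes that were not called. This is a description across genes, which are not independent, and both quantities come from 1 jointly adjusted table.

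**Figure D2:**
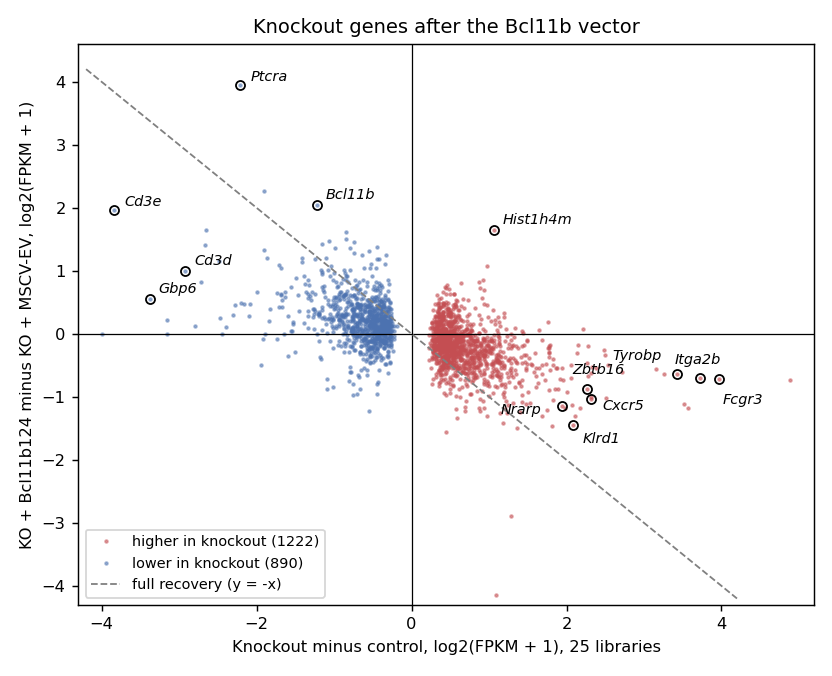
Move with the Bcl11b vector (1 library against 1) plotted against the knockout difference (14 against 11 libraries) for the 2112 called genes described, both in log2(FPKM + 1), 1 point per gene; the dashed line marks full recovery. Most knockout-higher genes (red) lie below 0 and most knockout-lower genes (blue) above 0, and most points with a large knockout difference lie between the horizontal axis and the dashed line.

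Recovery was partial at most of the strongly altered genes. Of the 235 described genes that were called and 2-fold or more higher in the knockout, 60 moved by 50% to 100% of their knockout difference and 6 by more, 81 by 25% to 50%, 69 by 0% to 25%, and 19 moved away from the control. Of the 133 genes at least 2-fold lower, 30 moved by 50% to 100% and 7 by more, 35 by 25% to 50%, 47 by 0% to 25%, and 14 moved away. The median moves were 0.49 beside a median knockout difference of 1.28, and 0.42 beside 1.31.

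The Cre-only libraries of day 12 gave the spread between cultures. Knockout genes were chosen here from the 19 libraries outside day 12, with 235 genes at least 2-fold higher and 126 at least 2-fold lower. The mean level of the higher genes was 3.87 in the empty-vector knockout, 3.37 in the Bcl11b vector library and 2.43 in the empty-vector control, while the Cre-only knockouts had 3.89, 3.99 and 3.71 and the controls 2.17, 2.56 and 2.42. The Bcl11b vector library lay below all 4 other knockout libraries and above all 4 controls. The mean level of the lower genes was 2.94, 3.45 and 3.62 in the 3 vector libraries, 3.10, 2.87 and 2.60 in the Cre-only knockouts and 4.53, 4.06 and 4.35 in the controls. It was again above the other knockouts with the Bcl11b vector, and the control with the empty vector stood below its Cre-only counterparts. Measured from the empty-vector knockout, 88.9% of the higher and 88.9% of the lower genes lay in the control direction with the Bcl11b vector. On the same measure the empty-vector control gave 97.4% and 82.5%. The Cre-only knockouts gave 41.7%, 38.3% and 58.3% of the higher genes and 57.1%, 46.8% and 29.4% of the lower genes.

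The starting library changed the size of this result. From the mean of the 3 Cre-only knockouts, with the knockout genes called outside day 12, 59.8% of the higher genes were lower with the Bcl11b vector, beside 52.6% of genes not called with a higher mean, and 69.2% of the lower genes were higher, beside 47.8%. For knockout genes of 2-fold or more the shares were 77.8% of 230 and 80.5% of 123. From the Cre-only knockout of the same title date they were 79.2% of 221 and 66.7% of 129, beside 59.6% and 40.4% of genes not called. The summed moves from that library were 34.2% of the knockout difference for the higher and 17.1% for the lower genes. From the mean of the 3 they were 20.8% and 35.1%, and from the empty-vector knockout 32.8% and 33.2%.

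**Figure D3:**
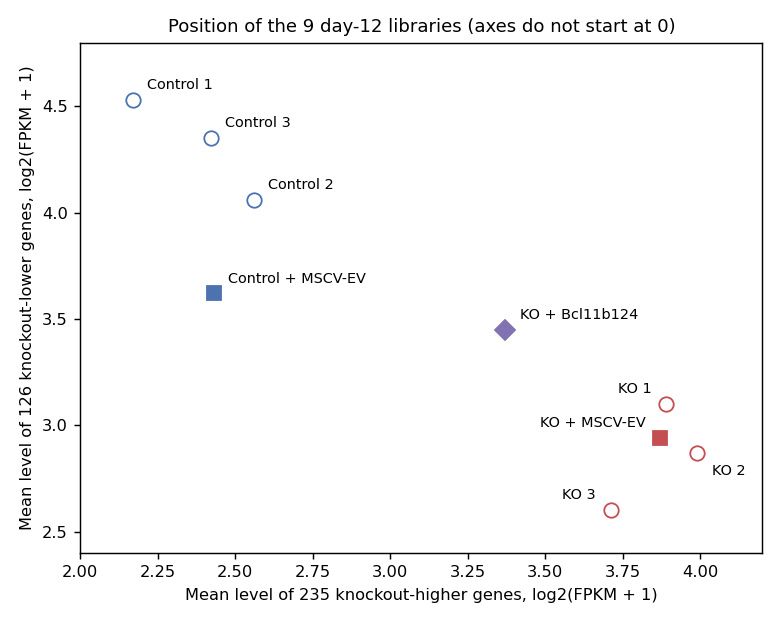
Mean log2(FPKM + 1) of 235 knockout-higher genes (horizontal) and 126 knockout-lower genes (vertical) in each of the 9 day-12 libraries, 1 point per library, with genes chosen from 19 libraries outside day 12. The Bcl11b vector library, at 3.37 and 3.45, lies between the 4 other knockouts and the 4 controls on the horizontal axis and between the knockouts and all 4 controls on the vertical axis.

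Markers of other cells and of dividing cells also differed between the libraries. The summed FPKM of the stromal list (collagens, Fn1, Sparc, Bgn and others) was 79.8 in the empty-vector knockout, 37.2 in the Bcl11b vector library and 41.6 in the empty-vector control, against 11.2 to 32.8 in the Cre-only knockouts and 11.5 to 90.5 in the controls. All 8 described stromal genes were lower with the Bcl11b vector, with a median move of -0.94, and none was called in the knockout. The same median was 0.77 from the mean of the Cre-only knockouts. The myeloid and B-cell lists had median moves of -0.05 over 6 genes and 0.02 over 4 genes. The defining myeloid genes Lyz2 and Csf1r were at most 0.47 and 0.36 FPKM in the 2 knockout libraries, but other myeloid genes were detected in the empty-vector and Bcl11b vector knockouts, Mpo at 3.6 and 1.5 FPKM, Cebpb at 12.5 and 11.2 and Itgam at 3.3 and 4.3. The summed myeloid list was 75.4, 76.1 and 91.9 FPKM in the 3 vector libraries and 51.6 to 65.6 in the 6 Cre-only day-12 libraries. The summed proliferation list was 1258, 1331 and 1355 FPKM in the 3 vector libraries, against 1327 to 2090 in the Cre-only knockouts and 1818 to 2199 in the controls. The part of these differences in the results was not tested.

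Most T-cell receptor genes were higher with the Bcl11b vector. Of 22 described members, 20 were higher and the median move was 0.41. All 12 members called lower in the knockout were higher, with a median of 0.58 beside a median knockout difference of -1.23. Of all knockout-lower genes described, 74.3% were higher, and 85.7% of those with a difference from 1 to 2. Measured from the mean of the Cre-only knockouts, 11 of 12 such list members were higher, with a median of 0.55. Over all knockout-lower genes that share was 69.2%. Cd3d, another chain of the complex, was at 71.0, 142.5 and 184.5 FPKM in the knockout with the empty vector, the knockout with the Bcl11b vector and the control. It was at 40.7, 61.0 and 15.1 in Cre-only knockouts and 238.0, 176.3 and 187.8 in controls. The vector library stood above every day-12 knockout. Cd3g moved less, from 365.3 to 434.3 FPKM with 707.0 in the control, or 10.1% of its knockout difference of -2.47 ± 0.62 (SE; adjusted p = 0.00573).

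Among proximal signalling genes, the adaptor gene Lat was at 106.7 FPKM in the empty-vector knockout, 166.5 in the Bcl11b vector library and 174.4 in the empty-vector control. Cd5, which encodes an inhibitory surface receptor, was at 2.5, 5.0 and 12.2 FPKM, and the kinase gene Zap70 at 2.8, 4.4 and 16.3. Txk, a Tec-family kinase gene that was higher in the knockout (1.27; adjusted p = 1.33e-06), went the other way, at 54.8, 36.7 and 18.2 FPKM. In the Bcl11b vector library each of these genes therefore lay between the empty-vector knockout and the control. That library was within the Cre-only knockouts for Lat (67.1 to 167.5 FPKM), Zap70 (0.68 to 4.8) and Txk (24.7 to 43.8). For Cd5 it was above their 2.1 to 4.0 FPKM. Both recombinase genes stood at similar levels in the vector libraries, Rag1 at 47.9, 61.8 and 68.8 FPKM and Rag2 at 10.4, 13.6 and 8.7, and neither was called in the knockout. Their Cre-only knockout levels were higher, at 85.5 to 177.1 and 19.4 to 44.7 FPKM, and the median move of 0.36 over the recombination list became -1.13 from that start. Dntt stood at the floor in all 3 vector libraries.

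T-lineage transcription factors as a list showed no common direction, with 10 of 18 higher, 8 lower and a median move of 0.05. The 4 members called lower in the knockout were all higher with the Bcl11b vector and the 2 called higher were both lower. Over all called genes described these shares were 74.3% and 76.3%. Id3, an inhibitor of E proteins, was at 14.3, 23.3 and 49.9 FPKM in the vector libraries and at 5.0, 1.3 and 0.1 in Cre-only knockouts. Its empty-vector level was thus already above those knockouts. Spib was at 1.9, 3.4 and 2.7 FPKM, Gfi1 at 21.7, 30.5 and 28.4 and Ets1 at 35.7, 42 and 56.3. Gata3, a factor needed for T-lineage entry that was higher in the knockout, was at 100.7, 72.8 and 38.0 FPKM. Tcf7, which was not called in the knockout, stood at 500.4, 416.4 and 231.5.

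Innate lymphoid and natural killer genes were mostly lower with the Bcl11b vector, but the size and, for the whole list, the direction depended on the start. Of 22 described members, 19 were lower and 3 higher, with a median move of -0.48. Of the 14 members called higher in the knockout, 13 were lower, with a median of -0.65. Over all knockout-higher genes described, 76.3% were lower, and 90.6% of those with a difference from 1 to 2. From the mean of the Cre-only knockouts the list median was 0.19. From that start 7 of 14 such list members were lower, with a median of -0.07, beside 59.8% of all knockout-higher genes. The adaptor gene Tyrobp was at 394.4, 252.1 and 22.3 FPKM in the 3 vector libraries, and Cre-only knockouts had 302.5, 511.2 and 248.8. Fcer1g, which encodes an Fc receptor gamma chain, was at 324.1, 212.2 and 33.3 FPKM, and the Bcl11b vector library lay below all 3 Cre-only knockouts at 283.8, 491.1 and 310.0. Fcgr3, a low-affinity Fc receptor gene, was at 27.0, 16 and 1.5 FPKM, with 40.6 to 87.2 in Cre-only knockouts. These 3 genes recovered 18.7%, 22.4% and 18.1% of knockout differences of 3.43, 2.72 and 3.97, so that most of the difference remained.

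Several regulators and receptors of the list were also lower with the Bcl11b vector. Nfil3, a factor required for natural killer cells, was at 17.8 FPKM in the empty-vector knockout, 9.7 in the Bcl11b vector library and 7.0 in the empty-vector control, with 10.5 to 18.4 in Cre-only knockouts and 4.1 to 7.5 in controls. Id2, an inhibitor of E proteins that is needed for innate lymphoid cells, was at 136.8, 86.5 and 36.6 FPKM, but Cre-only knockouts spanned 48.4 to 95.2, so the vector library lay among them. The receptor gene Klrd1 was at 14.7, 4.7 and 0.1 FPKM, and Il2rb, the shared beta chain of the IL-2 and IL-15 receptors, at 31.8, 12.4 and 6.1. For both, the Cre-only knockouts of day 12 were lower than the empty-vector library, at 3.2 to 8.9 and 5.0 to 8.9 FPKM. The move of Il2rb was 0.70 from their mean instead of -1.30. Over all 14 knockouts without a second vector, Klrd1 averaged 12.9 FPKM (SD 9.72) and Il2rb 11.2 (SD 9.93). The granzyme gene Gzma was at 2672.3, 1405.2 and 1113.4 FPKM, with the Bcl11b vector library below the 1960.2 to 3456.2 of Cre-only knockouts. Il18rap, at 10.3 and 10.2 FPKM, and Nkg7, at 354.7 and 349.2, hardly differed between the vectors.

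Progenitor genes called higher in the knockout were mostly lower with the Bcl11b vector from either start. Of 17 described members of the whole list, 11 were lower and 6 higher, with a median move of -0.42. Of the 9 members called higher in the knockout, 8 were lower, with a median of -0.71, beside 76.3% of all knockout-higher genes described. From the mean of the Cre-only knockouts, 7 of 8 such list members were lower, with a median of -0.68, beside 59.8%. Gfi1b, a transcriptional repressor required for megakaryocyte and erythroid development, was at 7.8, 3.1 and 0.59 FPKM, and Cre-only knockouts had 8.0, 5.5 and 7.4. Bcl11a, the paralogue of Bcl11b, was at 11.4, 6.4 and 5.1 FPKM, with 14.4, 12.1 and 15.2 in Cre-only knockouts. Hhex, a homeobox gene of progenitors, was at 17, 10.9 and 7.5 FPKM, with 22.5, 14.7 and 17.9. For these 3 genes the vector library was below every day-12 knockout.

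The PU.1 gene, which the table lists as Sfpi1, was at 32.2 FPKM in the empty-vector knockout, 12.5 in the Bcl11b vector library and 6.4 in the empty-vector control. Its Cre-only knockouts had 11.6, 22.2 and 18.1 FPKM, so the vector library lay within their range. Kit, the stem cell factor receptor gene used to gate these stages, was at 69.6, 50.5 and 31.8 FPKM. It was called higher in the knockout (adjusted p = 0.0051), but not with the replicate block (adjusted p = 0.0576). Lyl1 and Flt3 hardly differed between the vectors, at 33.4 and 29.7 and at 6.0 and 6.1 FPKM.

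**Figure D4:**
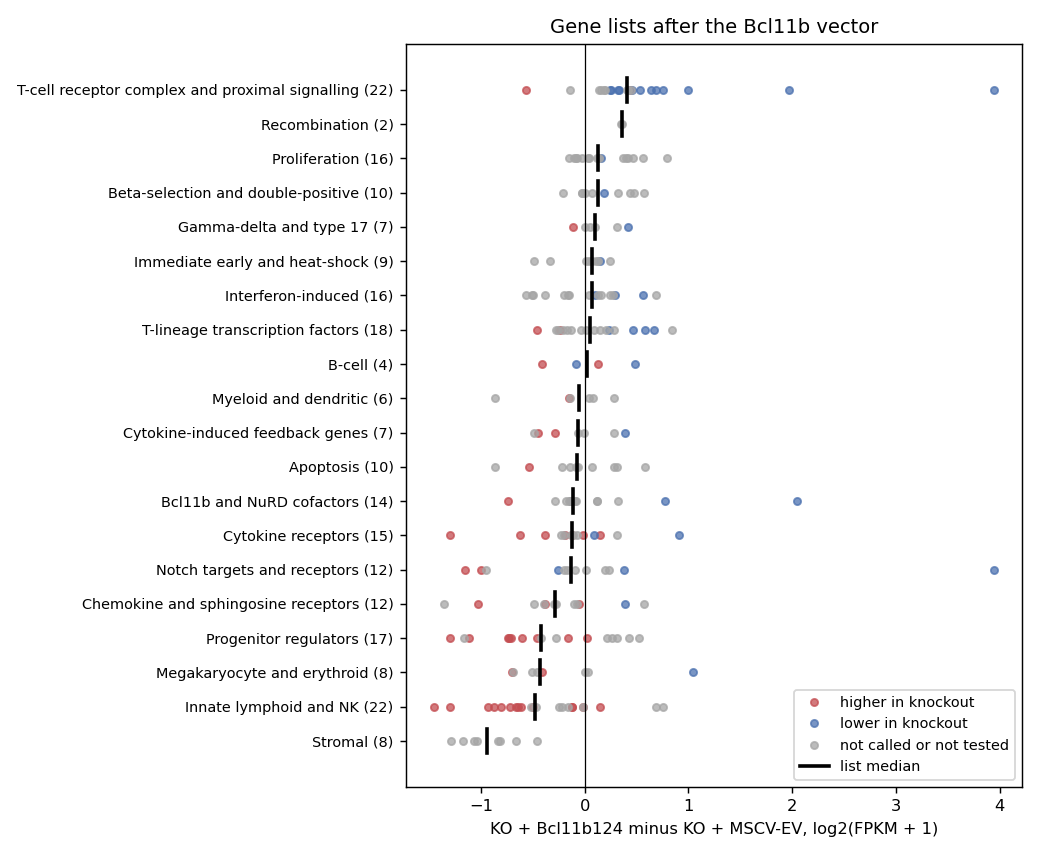
Move with the Bcl11b vector, in log2(FPKM + 1), of the described members of 20 gene lists (number in brackets), 1 point per gene, coloured by the knockout call, with a black bar at each list's median. T-cell receptor genes lie mostly to the right (median 0.41), innate lymphoid, progenitor and stromal genes mostly to the left (medians -0.48, -0.42 and -0.94), and most other medians lie near 0.

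Other pathways moved at single genes. Nrarp, a direct Notch target and feedback inhibitor, was at 39.9, 17.4 and 10.9 FPKM, with the Bcl11b vector library below the 29.3, 48.1 and 47.7 of Cre-only knockouts, while the Notch list as a whole had 5 of 12 members higher and a median of -0.13. Notch1 and Hes1, not called in the knockout, moved by 0.23 and -0.17. Among chemokine and sphingosine receptor genes, 10 of 12 were lower, with a median of -0.29. The 3 members called higher in the knockout were all lower, with a median of -0.38, beside 76.3% of all knockout-higher genes described. From the mean of the Cre-only knockouts, 1 of 3 such genes was lower, with a median of 0.24. Cxcr5, the receptor for CXCL13, was at 36.0, 17.1 and 7.0 FPKM, but its Cre-only knockouts had 20.2, 25.5 and 16. The integrin gene Itga2b, a megakaryocyte and progenitor marker, was at 46.1, 28.0 and 2.6 FPKM and below the 65.2 to 123.9 of Cre-only knockouts, with 18.8% of its knockout difference recovered. Gata1 was at 2.0, 5.2 and 4.2 FPKM, with the Bcl11b vector library above the 1.9 to 2.3 of Cre-only knockouts. The IL-21 receptor gene Il21r was at 4.1, 8.5 and 12.8 FPKM, so that the Bcl11b vector library lay above the 4.3 to 5.4 of Cre-only knockouts and the empty-vector knockout below them. The cytokine receptor list had 4 of 15 members higher and a median of -0.12, and the cytokine feedback list 2 of 7 and -0.06. These medians were 0.28 and 0.65 from the mean of the Cre-only knockouts.

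Interferon-induced, immediate early, apoptosis, gamma-delta and double-positive lists had medians between -0.07 and 0.13, and the megakaryocyte and erythroid list had -0.43 over 8 genes. From the mean of the Cre-only knockouts the interferon-induced and apoptosis medians were 0.54 and 0.56, beside 0.07 and -0.07 from the empty vector. The interferon-induced GTPase gene Gbp6, strongly lower in the knockout (-3.38 ± 0.44, SE; adjusted p = 2.4e-06), was at 14.5, 21.9 and 31.7 FPKM, while Cre-only controls had 91.9, 41.3 and 69.3. Sox13, a factor of the gamma-delta lineage, was at 8.8, 12.1 and 12.1 FPKM, far from the 55.2 to 60.5 of Cre-only controls, and so was the control with the empty vector. Among the NuRD and Bcl11b list, Chd3, a NuRD remodeller gene, was at 54.1, 93.3 and 52.1 FPKM, and the other members apart from Bcl11b and Bcl11a moved by -0.29 to 0.32. The coreceptor genes Cd4, Cd8a and Cd8b1 hardly differed between the 2 knockout vectors, at 27.8 and 27.2, 27.8 and 29.2, and 44.6 and 44.6 FPKM. Their values followed the name endings of the columns, since Cd8b1 was at 97.9 to 98.4 FPKM in 3 columns ending in DN2b_WT, the control with the empty vector among them, and at 44.3 to 50.7 in the other 6. Both knockout vector columns share 1 ending, and the control has another. The column names also hold a tag, X_2 and X_1 for the knockout vector columns and "new" for the control. No meaning of these tags was assumed.

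Some knockout genes did not move toward the control. Ccl5, an inflammatory chemokine gene, was at 28.9 FPKM in the empty-vector knockout, 34.9 in the Bcl11b vector library and 5.9 in the empty-vector control, and Cre-only knockouts had only 6.3 to 10.9. It was not called with the replicate block (adjusted p = 0.0822, against 0.00888 without it). Ffar2, a receptor gene for short-chain fatty acids, was at 8.1, 10.5 and 2.2 FPKM. Fabp5, a fatty acid carrier gene that was lower in the knockout, was at 65.1, 50.3 and 123.2 FPKM. The calcium-binding protein gene Tesc was at 4.4, 2.0 and 4.4 FPKM and the iron reductase gene Steap3 at 9.4, 7.5 and 8.5. Maf and Ccr4 hardly differed between the vectors, at 20.9 and 19.2 and at 18.2 and 17.5 FPKM. Maf was called in the knockout (adjusted p = 0.0261) but not with the replicate block (adjusted p = 0.199).

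The largest differences between the vectors included knockout genes and others. Of the 12 named genes with the largest increase, 4 were called in the knockout, namely Bcl11b, Cd3e, Ptcra and Uaca, all lower there. Of the 12 with the largest decrease, 5 were called, namely Hebp1, Trpv4, Gal, Klrd1 and Cmpk2, all higher there, beside 16.9% of all genes tested called in either direction. Hebp1 was not called with the replicate block (adjusted p = 0.237, against 0.0463 without it). Uaca was at 0.44, 5.9 and 0.10 FPKM in the 3 vector libraries, so the empty-vector control stood at the floor. Its Cre-only day-12 values were 2.7 to 3.9 FPKM in the knockouts and 8.5 to 28.3 in the controls. The ribosomal protein gene Rps27 was at 12.7, 522.9 and 382.1 FPKM, but its reads may be shared with near-identical copies and Cre-only knockouts spanned 44.1 to 327.5. Histone genes such as Hist1h3h, from 0.1 to 7.6 FPKM, had 12.6 to 30.6 in Cre-only knockouts and can share reads as well. Btg3, an antiproliferative gene, was at 6.3, 25.2 and 7.0 FPKM and at 3.4 to 8.5 in the 6 other day-12 libraries. The metallothionein gene Mt2 was at 6.0, 35.3 and 11.2 FPKM, against 5.8 to 21.7. Among the decreases, the channel gene Trpv4 was at 5.6, 1.3 and 0.71 FPKM and the nucleotide kinase gene Cmpk2 at 10.7, 3.4 and 2.6, both knockout-higher genes with Cre-only knockouts above the vector library.

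The 3 libraries with a second vector also shared levels that set them apart from the 6 Cre-only day-12 libraries, whatever their genotype. Of 15106 genes, 399 (2.64%) were above all 6 in all 3 vector libraries and 980 (6.49%) were below all 6. Proliferation genes were below in 9 of 16 cases, among them Top2a, at 107.7 to 158.9 FPKM, and Mki67, at 29.8 to 40.2, against at least 201.9 and 53.7 in the others. The apoptosis list had 2 of 10 genes above and none below. They were Bcl2, a survival gene, at 41.2 to 52.3 FPKM, and Bax, a pro-apoptotic gene. Bax was at 90 FPKM or more, against at most 83.3 in the 6 others. The interferon-induced list had 4 of 17 genes above and none below, namely Usp18, Mx1, Ifit1 and Ifit3. Usp18 was at 6.7 to 7.5 FPKM, against at most 6.6 in the 6 others, and Mx1 at 0.75 to 1.7, against at most 0.73. Both ranges nearly touch. Ifit1 and Ifit3 reached at most 2.5 FPKM. Of 11 immediate early and heat-shock genes, 1 was above, Egr1 at 14.7 to 19.7 FPKM. Nr4a1, an early response gene of another list, was above at 10.1 to 15.1. Nkg7 was at 243.8 to 354.7 FPKM. The nerve growth factor receptor gene Ngfr was at 57.0, 22.1 and 35 FPKM in the 3 vector libraries and at 0.1 to 9.8 in the 6 others.

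Few genes set the Bcl11b vector library apart from all 8 other day-12 libraries by 2-fold, 3 above (0.0218%) and 5 below (0.0363%). Btg3 was above, at 25.2 FPKM against at most 8.5. Histone genes Hist1h3a, Hist1h3c and Hist1h4k were below, at 1.6, 0.52 and 0.10 FPKM, and can share reads with their copies.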

How the data were processed

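The authors deposited 1 table of FPKM values for 17754 genes, which the file's name calls merged and ComBat-adjusted, that is, corrected for batch differences. The submitters' processing notes name mouse build mm9. For the aligner, the tool that computed FPKM and the batches set in ComBat, nothing is given in the sources used here. The adjustment could have moved differences between libraries in either direction. Per the labels' protocols, poly(A) RNA was converted to cDNA by random priming with no step listed that marks strand. A further 16 columns of per-sample values were matched to no sample and not used. Values end at a floor of 0.1 FPKM, which is read as not detected, and totals ran from 581205 to 1005744 FPKM, the highest being the control with the empty vector. Such values do not reveal read depth, and counting intervals are therefore left out.

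Differences were computed on log2(FPKM + 1), which understates changes of genes with low values. The 3 vector libraries were compared gene by gene where at least 1 reached 1 FPKM, and genes past 2-fold were counted. Knockout genes came from 25 other libraries, fitted with limma 3.58.1 in R 4.3.3 (trend, stroma and IL-7 as covariates, Benjamini-Hochberg adjusted p under 0.05, 1 FPKM in at least 11 libraries). The fit was tested on simulated data. Nothing in the labels says that all libraries are separate cultures or animals, and by title date and culture day some may be 1 culture on successive days, so its p-values measure only the spread between these libraries. The 9 knockout and control pairs share a title date, stroma and IL-7, and their deviations from the group means correlated between -0.055 and 0.528.

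Named genes are the 4 markers, the 12 largest increases and decreases between the vectors among genes with at least 5 FPKM in 1 of the 2 (without pseudogenes, predicted genes, receptor segments and small RNAs), up to 4 called members of each of 20 lists or its 2 most abundant, and the 10 called genes of 2-fold or more with the largest and the smallest move toward the control. Other list members are named as examples chosen after their values were seen. Members, lists and rules were chosen with earlier results of these data known. List genes not in the table include Klf1, Epor, Cd14, Lyz1, Pax5, Blnk, Lum and Atf3. Promoters were taken from RefSeq on GRCm38.p6, which is not the build of the table. The alternatives tried were quantile normalization, a pseudocount of 0.1, no filter, a 1.5-fold threshold, each library left out, subsets, the replicate block and other starting libraries.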

Additional observations from a re-analysis of the deposited data

How the results depend on the processing

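Quantile normalization left the direction of all 88 named genes as it was, with moves within the spread of the 3 Cre-only day-12 knockouts. Under a pseudocount of 0.1, 71 of the 88 stayed within it. The number of genes called in the knockout was 1282 with the replicate block and 778 in DL1 cultures with standard IL-7 alone, and ran from 1830 to 2246 with each library left out in turn. The share of knockout-higher genes that were lower with the Bcl11b vector was 86.3% with the block, 87.3% in DL1 cultures alone, 91.5% for genes of 2-fold or more and 72.6% without the 6 day-12 libraries, an alternative chosen after seeing the data. The matching shares of knockout-lower genes that were higher were 80.8%, 82.3% and 85.7%. From the Cre-only knockout of the same date the 2 shares were 65.5% and 54.3%, beside 59.6% and 40.4% of genes not called, and from the mean of the 3 Cre-only knockouts 59.8% and 69.2%. With each library left out they ran from 74% to 78.7% and from 72.8% to 76.4%, and the summed moves from 30.2% to 34.9% and from 30.5% to 34.8% of the knockout difference. The summed moves of the higher and lower genes were 20.8% and 35.1% from the mean of the 3 Cre-only knockouts. From the one of the same date they were 34.2% and 17.1%. Against the gap between the 2 empty-vector libraries, the summed move of the lower genes was 104%, since the control with the empty vector lay below the Cre-only controls for these genes.

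A 1.5-fold threshold gave 844 genes higher and 805 lower between the vectors, and a pseudocount of 0.1 gave 635 and 589. Between control and knockout, both with the empty vector, the counts were 1078 and 2159, and 901 and 1174. Without genes at the floor in either knockout vector library, 76.3% of 1218 knockout-higher genes were lower and 74.5% of 879 knockout-lower genes were higher.

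From the mean of the 3 Cre-only knockouts, list medians became -1.13 (recombination), 0.19 (innate lymphoid), 0.28 (cytokine receptors), 0.65 (cytokine feedback), -0.63 (megakaryocyte and erythroid), -0.41 (B-cell), 0.77 (stromal), 0.54 (interferon-induced), -0.61 (proliferation) and 0.56 (apoptosis). From that start 32 of the 88 named genes stayed within the spread of the Cre-only knockouts, 46 moved beyond it and 10 changed direction: Ptcra to -0.03, Hist1h3h to -1.14, Hist1h4h to -0.86, Hist1h4b to -1.04, Insl3 to -0.05, Ngfr to 3.29, Il2rb to 0.70, Bgn to 1.71, Ccdc18 to -0.14 and Hist1h4m to -2.49. The cause was not tested. Leaving out a library of the vector experiment leaves no comparison, so those were not run, and depth limits cannot be stated from FPKM values.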

Other observations

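Genes with the largest knockout differences that lay outside the rule for named genes included several that stood lower with the Bcl11b vector, chosen here after their values were seen. Dlk1, which encodes a Notch-related surface protein, was at 72.4 FPKM in the empty-vector knockout, 31.5 in the Bcl11b vector library and 6.4 in the control. Fgf3, a fibroblast growth factor gene, was at 77.8, 35.3 and 3.9 FPKM. Tnni1, a troponin gene, was at 125.9, 75.4 and 1.2 FPKM. The tubulin gene Tubb2b, lower in the knockout, was at 12.3, 28.7 and 34.0 FPKM.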
